A study of Mus musculus with 6 samples.

Results

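The mitochondrially encoded genes are the 37 genes of the mouse mitochondrial genome, taken here as every gene of the deposited gene table whose symbol begins with mt-, out of 40769 genes in all. They comprise 13 mRNA genes, 2 ribosomal RNA genes and 22 transfer RNA genes. Polyadenylated RNA was sequenced from C57BL/6 small intestinal enteroids, epithelial cultures kept in Matrigel and serum-free ENR medium, which the series title places in the jejunum. A GFP line was made with a piggyBac transposon that drives GFP constitutively. A PLAGL2 clone 1 line, labelled with a low PLAGL2 level, and a PLAGL2 clone 3 line, labelled with a high level, were made with piggyBac transposons that drive PLAGL2, a zinc finger transcription factor, in the same way. Each line was a single transfected culture sampled once at passage 5 and once at passage 7, so all 6 libraries carry an integrated transposon and none comes from an untransfected culture. P-values between lines therefore measure the spread between passages of these cultures, and p-values between passages measure the spread of the passage change among 3 lines. Nothing in the labels separates passage from the day of harvest or library preparation.

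Plagl2 itself had an RPKM (reads per kilobase of gene, scaled to library size) of 22.8 and 23.1 at passages 5 and 7 of GFP, of 30.9 and 26.5 for clone 1, and of 37.2 and 37.2 for clone 3, in the order of the labels. The epithelial markers Epcam and Cdh1 lay at an RPKM of 478 to 554 and 217 to 247 in the 6 libraries. Of 8 non-epithelial markers, the leukocyte genes Ptprc and Cd3e and the collagen genes Col1a1 and Col1a2 were at or below 0.0462. The endothelial Pecam1 lay at 0.121 to 0.256, the myeloid Lyz2 at 0.0948 to 0.860, the smooth muscle Acta2 at 0.410 to 1.06 and Vim, an intermediate filament gene of mesenchymal cells, at 5.06 to 9.86. Library totals recovered from the RPKM steps were 13779306 to 17319950 reads, and a listed 0 allows up to 3 reads by counting error alone.

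Mitochondrial DNA is a small circle present in many copies per cell, transcribed from both strands as long precursors that are cut apart, largely at the tRNAs that separate the mRNAs and rRNAs. The mRNAs encode core subunits of respiratory complexes I, III and IV and of ATP synthase, whose other subunits come from the nucleus, and the rRNAs form the mitochondrial ribosome. Most mitochondrial mRNAs end in a poly(A) tail, and in human cells the light-strand ND6 mRNA largely lacks one. In the small intestine, differentiated enterocytes are rich in mitochondria, and stem cells of the crypt base also depend on respiration. Copies of mitochondrial DNA also lie in the nuclear genome, where they are annotated as pseudogenes.

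A nuclear copy overlaps a large part of the mitochondrial genes in sequence, and the deposited values of these genes cannot be read without it. In mm10, the 7 unprocessed pseudogenes Gm29216, Gm28661, Gm10925, Gm28437, Gm28438, Gm10222 and Gm28439 lie head to tail on the minus strand of chromosome 1, from 24611535 to 24616197. They matched positions 6381 to 11042 of the mitochondrial genome in the same order, with 7 mismatches in 4149 aligned bases. Gm28661 equalled the first 681 bases of mt-Co2, Gm10925 the first 678 of mt-Atp6, Gm28437 the first 783 of mt-Co3, Gm10222 the first 294 of mt-Nd4l and Gm28439 the first 876 of mt-Nd4, with 0 mismatches each. Gm28438 differed from mt-Nd3 by 1 base over 345 bases, and Gm29216 from the end of mt-Co1, bases 1054 to 1545, by 6 bases. The transcript sequences are those of GENCODE M21, and 60 bases of 3 pairs are shown because they carry both the identity and all 7 differences, which stand in capitals.

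mt-Co2, chrM:7013-7072, plus strand: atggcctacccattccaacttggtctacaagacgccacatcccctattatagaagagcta
Gm28661, chr1:24615506-24615565, minus strand: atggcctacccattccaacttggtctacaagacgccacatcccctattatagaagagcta
mt-Nd3, chrM:9459-9518, plus strand: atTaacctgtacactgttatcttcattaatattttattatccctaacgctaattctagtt
Gm28438, chr1:24613060-24613119, minus strand: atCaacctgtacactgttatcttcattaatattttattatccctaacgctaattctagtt
mt-Co1, chrM:6381-6440, plus strand: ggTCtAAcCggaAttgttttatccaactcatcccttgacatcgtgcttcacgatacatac
Gm29216, chr1:24616138-24616197, minus strand: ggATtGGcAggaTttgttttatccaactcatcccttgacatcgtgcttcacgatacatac

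Counted from the first base of the mitochondrial gene, with the mitochondrial base first, the single difference in mt-Nd3 is T3C, and those in mt-Co1 are T1056A, C1057T, A1059G, A1060G, C1062A and A1066T. The stretches between the pseudogenes have the same length on both chromosomes, except between mt-Nd3 and mt-Nd4l, where the nuclear stretch has 74 bases and the mitochondrial one 73. That stretch holds the arginine tRNA gene mt-Tr, at positions 9808 to 9875.

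Most genes listed at 0 in the gene table lie in this stretch. Of the 37 mitochondrial genes 11 were at 0 in all 6 libraries, namely mt-Co2, mt-Co3, mt-Atp8, mt-Nd4l and 7 tRNA genes. By counting error alone, a listed 0 allows an RPKM of up to 0.253 to 0.318 for mt-Co2 and up to 0.849 to 1.07 for mt-Atp8, the shortest of the mRNA genes, but it does not limit their level if reads were assigned elsewhere. Inside the matched stretch lay 11 genes, of which 8 were at 0, while mt-Atp6 had 2 reads in GFP at passage 7 and 0 in the other libraries, mt-Nd3 had 4 to 6 reads and mt-Tr 18 to 43. Outside it lay 24 genes, of which 3 were at 0, the tRNA genes mt-Tw, mt-Ty and mt-Th. The remaining 2 genes, mt-Co1 and mt-Nd4, cross an end of the stretch. The share of 50-base windows found in another annotated transcript was 100% for mt-Co2, 99.5% for mt-Atp6, 99.9% for mt-Co3, 98.8% for mt-Nd4l, 98.0% for mt-Nd3, 62.2% for mt-Nd4 and 51.1% for mt-Co1. It was 8.19% for mt-Nd2, 7.61% for mt-Nd5, 1.04% for mt-Rnr2 and 0% for mt-Nd1, mt-Nd6, mt-Cytb and mt-Rnr1. mt-Atp8 also gave 0%, but most of it, like mt-Td, mt-Tk, mt-Tg and mt-Tr, falls between annotated pseudogenes, where the nuclear sequence was not compared. How reads that fit more than 1 place were handled is not given in the sources used here, and its part in the zeros was not tested.

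The transcript table listed the same mRNAs quite differently. It has an entry for each of the 13 mRNAs and for the 7 pseudogenes, and none for the rRNAs or tRNAs. Gm28661 stood at an RPKM of 9467, 14005, 11725, 14498, 10226 and 14765 (GFP, clone 1 and clone 3, each at passage 5 and then passage 7), against 97.9, 152, 136, 178, 102 and 184 for mt-Co2 with the identical sequence. With each RPKM weighted by the length of its transcript, so that reads are compared, the pseudogene held 98.9% of the pair, as a mean over the 6 libraries. The corresponding length-weighted shares were 97.8% for Gm28437 beside mt-Co3, 90.4% for Gm10925 beside mt-Atp6, 88.9% for Gm28438 beside mt-Nd3 and 8.82% for Gm29216 beside mt-Co1, which spans 1545 bases against the 492 of its copy. Unweighted, Gm29216 stood at an RPKM of 3957 to 4494 beside 12524 to 14783 for mt-Co1. In the opposite way, Gm10222 and Gm28439 were at 0 in all 6 libraries, beside 6201 to 7999.6 for mt-Nd4l and 3083 to 4100 for mt-Nd4. In the gene table the 7 pseudogenes held 0 to 12 reads each, the highest being Gm29216 in GFP at passage 7.

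Combined with their nuclear copies, the cytochrome oxidase and ATP synthase mRNAs were the most abundant of the 13 in the transcript table. The combined level is the RPKM of the gene plus that of its copy times the copy's length over the gene's length. It was 15050 ± 1071 for mt-Co1 (SD, n = 6), 12535 ± 2321 for mt-Co2, 12362 ± 1495 for mt-Atp6, 9997 ± 1066 for mt-Co3 and 2143 ± 423 for mt-Nd3. Entries with no annotated copy were 9281 ± 685 for mt-Atp8 and 5017 ± 629 for mt-Cytb. The neighbours mt-Co2 and mt-Atp6 in this order did not differ beyond their spread. Whether any of this signal came from the chromosome 1 copy itself cannot be told from either table.

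**Figure D1:**
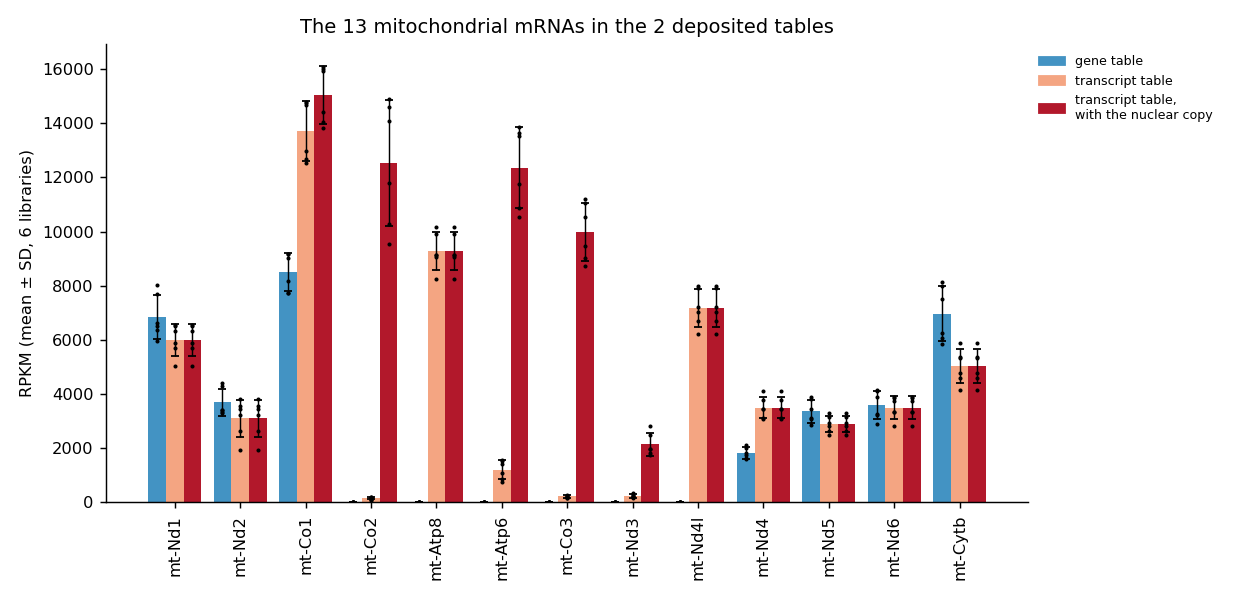
RPKM of the 13 mitochondrial mRNAs, in order along the genome, in the gene table (blue), the transcript table (orange) and the transcript table with the nuclear copy added in proportion to its length (red). Bars are means, error bars SD and points the 6 libraries. The blue bars of mt-Co2, mt-Atp8, mt-Atp6, mt-Co3, mt-Nd3 and mt-Nd4l lie at or near 0, and the red bar of mt-Co2 stands at 12535.

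Of the 37 genes 25 passed the expression filter in the gene table, which asked 2 or more libraries to reach an RPKM of 0.5. They were 8 mRNAs, both rRNAs and 15 tRNAs. The filter asks for a value in only 2 libraries, and mt-Tf, the phenylalanine tRNA gene, met it with 1 read in each of 2 libraries. The values below are those of the gene table, in the order GFP, clone 1 and clone 3, each at passage 5 and then passage 7.

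Complex IV, cytochrome oxidase, was represented by mt-Co1 alone, which encodes its catalytic subunit. Its RPKM was 7743, 9021, 8182, 9152, 7729 and 9167, from 192058 to 218937 reads. It was the highest of the 37 genes and ranked 3rd of all genes in each library, and the 3 passage 7 values lay above all 3 at passage 5. The genes above it were Rn7sk, at 13736 to 14858, and Rpph1, at 11400 to 12753, which make small nuclear-encoded RNAs that carry no poly(A) tail, although the labels give polyA RNA.

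Complex III was represented by mt-Cytb, cytochrome b, its single subunit of mitochondrial origin. It stood at 6255, 8146, 5865, 7988, 6069 and 7509. As for mt-Co1, the passage 7 values did not overlap those of passage 5.

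Complex I, NADH dehydrogenase, takes 7 subunits from the mitochondrial genome, all in the membrane arm. mt-Nd1 stood at 6498, 8016, 6631, 7703, 6365 and 5946. mt-Nd2 stood at 3417, 4397, 3417, 4284, 3333 and 3286. For both, clone 3 at passage 7 was the lowest library, and the passages overlapped. mt-Nd4 stood at 1743, 2112, 1600.5, 2022, 1633 and 1831. mt-Nd5 stood at 3095, 3887, 3106, 3818, 2847 and 3453, and mt-Nd6, the single mRNA of the light strand, at 3242, 4103, 3264, 3886, 2882 and 4149.8. In these 3 the passage 7 values lay above all passage 5 values. mt-Nd3 was at 0.865, 0.834, 0.664, 1.12, 0.690 and 0.953 and mt-Nd4l at 0, both within the stretch copied to chromosome 1.

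The annotated mt-Nd5 and mt-Nd6 genes overlap tail to tail by 14 bases, shown here because the strand of the libraries is not given and reads from there cannot be told apart.

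mt-Nd5, chrM:13552-13565, plus strand: ttaatctcgagtaa
mt-Nd6, chrM:13552-13565, minus strand: ttactcgagattaa

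Of the rRNAs, mt-Rnr2 (16S, large subunit) stood at 5510.1, 5548, 6303, 5085, 5452 and 6034 and mt-Rnr1 (12S, small subunit) at 1826, 1911, 1924, 1558, 1735 and 1923. Both were lowest in clone 1 at passage 7, and the passages overlapped.

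The order of mean levels was mt-Co1 (8499 ± 694, SD, n = 6), mt-Cytb (6972 ± 1025), mt-Nd1 (6859.9 ± 814), mt-Rnr2 (5655 ± 439), mt-Nd2 (3689 ± 509), mt-Nd6 (3588 ± 528), mt-Nd5 (3368 ± 423), mt-Nd4 (1823 ± 207) and mt-Rnr1 (1813 ± 145). mt-Cytb was above mt-Nd1 in 3 of 6 libraries and mt-Nd4 above mt-Rnr1 in 2 of 6, so these neighbours did not differ beyond their spread. mt-Nd6 was above mt-Nd5 in 6 of 6 libraries, although their SDs overlap. By reads, mt-Co1 took 24.9% ± 0.741 of all mitochondrial reads, mt-Rnr2 17.1% ± 2.03 and mt-Cytb 15.1% ± 1.14. In the transcript table mt-Co1 stood at 13730 ± 1108, above its gene table value, and mt-Nd4 at 3493 ± 390, while mt-Nd1 and mt-Cytb were lower there, at 6004 ± 584 and 5017 ± 629. The tables were made separately, so these levels show only how the 2 listings differ.

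**Figure D2:**
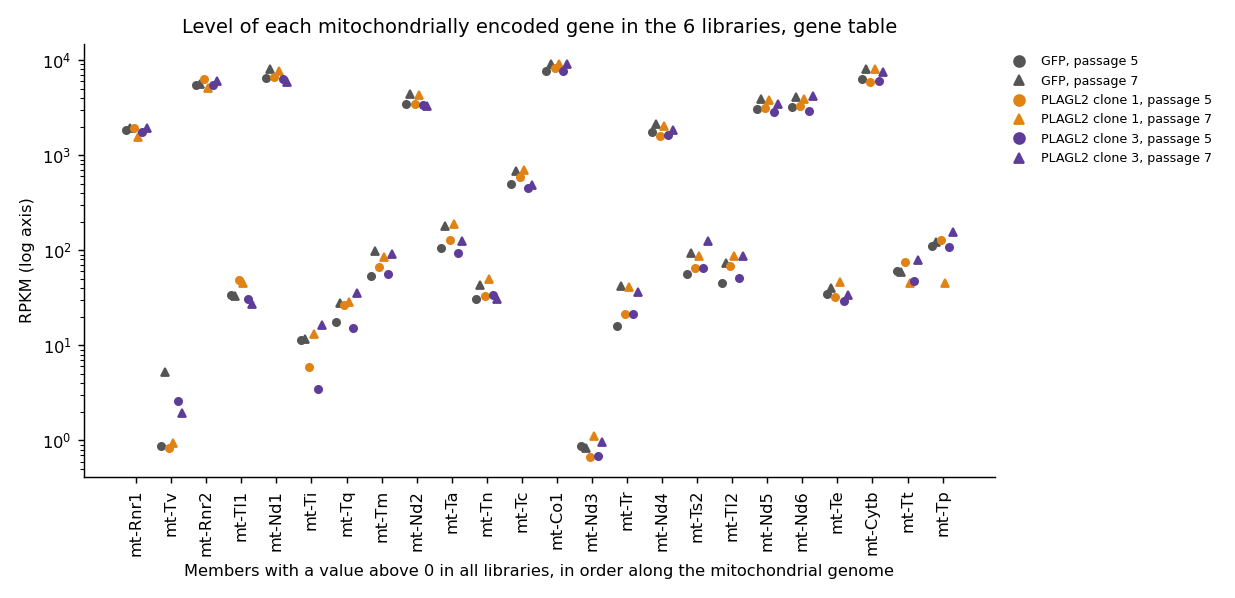
RPKM of the 24 mitochondrial genes with a value above 0 in all 6 libraries, on a log axis, in order along the genome. Colours give the line, circles passage 5 and triangles passage 7. The highest gene is mt-Co1 and the lowest mt-Nd3, the latter at an RPKM of 0.664 to 1.12.

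The tRNA genes are 59 to 75 bases long and held few reads. All 22 together had 1200 and 1392 reads for GFP, 1501 and 1510 for clone 1, then 1124 and 1341 for clone 3, which was 0.141% to 0.173% of mitochondrial reads. Whether these reads came from free tRNAs or from longer transcripts that contain them cannot be told from the table. The cysteine tRNA gene mt-Tc had 483 to 705 reads, the most in each library, at an RPKM of 499, 676, 587, 692, 446 and 485. Its neighbours in the same light-strand cluster differed widely, with 108 to 199 reads for mt-Ta (alanine), 33 to 54 for mt-Tn (asparagine) and 0 in all libraries for mt-Ty (tyrosine). Of the others past the filter, mt-Tp (proline) had 47 to 156 reads, mt-Ts2 (serine) 55 to 110, mt-Tm (methionine) 61 to 96, mt-Tl2 (leucine) 53 to 96, mt-Tt (threonine) 47 to 87 and mt-Tl1 (leucine) 31 to 63. The lowest were mt-Te (glutamate) with 34 to 49, mt-Tr with 18 to 43, mt-Tq (glutamine) with 18 to 38, mt-Ti (isoleucine) with 4 to 17, mt-Tv (valine) with 1 to 5 and mt-Tf with 0 or 1. Those at 0 in all libraries were mt-Tw, mt-Ty, mt-Ts1, mt-Td, mt-Tk, mt-Tg and mt-Th, the tRNA genes for tryptophan, tyrosine, serine, aspartate, lysine, glycine and histidine. A count of 0 allows an RPKM of up to 2.47 to 3.35 by counting error alone. For mt-Ts1, mt-Td, mt-Tk and mt-Tg, in the stretch copied to chromosome 1, it does not limit the level if reads were assigned elsewhere. The transcript table lists mRNA genes of that stretch that are at 0 here, or their copies, among its highest mitochondrial levels. mt-Tw, mt-Ty and mt-Th lie outside the stretch, and 0% of their 50-base windows occur in another annotated transcript. Whether their zeros reflect a low level was not tested.

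**Figure D3:**
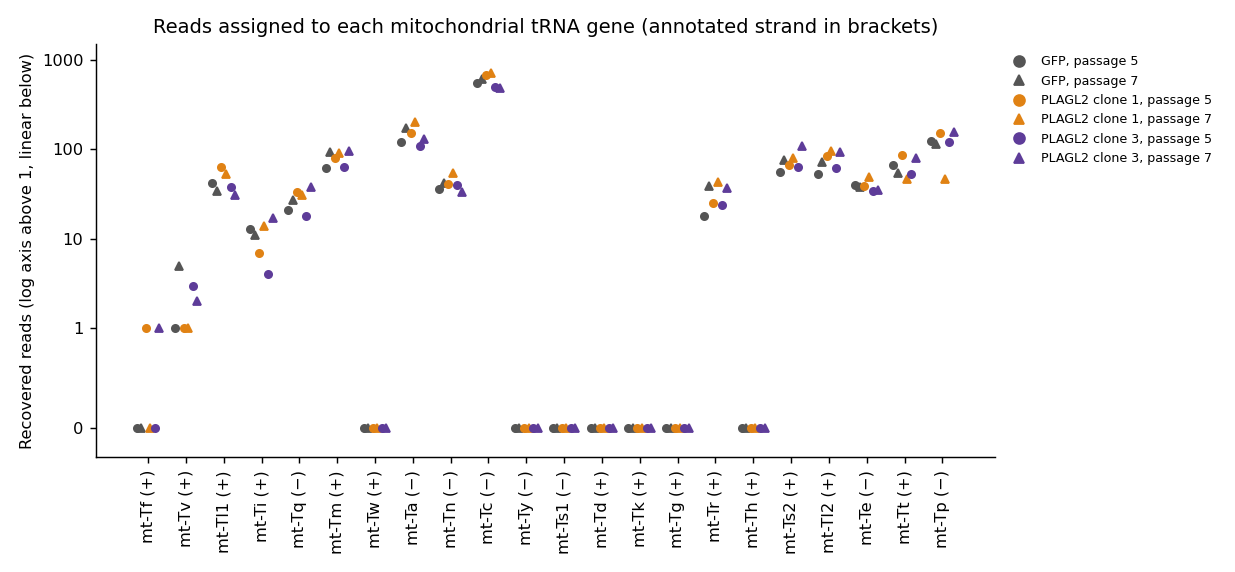
Reads assigned to each of the 22 mitochondrial tRNA genes in the 6 libraries, in order along the genome, with the annotated strand in brackets. The axis is logarithmic above 1 read. 7 genes lie at 0 in all libraries and mt-Tc holds 483 to 705 reads.

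Calls of mitochondrial genes came from the comparison of passages. Of the 25 tested, 5 were higher at passage 7 and 0 lower at an adjusted p under 0.05, all 5 of them tRNA genes (limma-trend on log2(RPKM + 0.5), two-sided, line as a term, Benjamini-Hochberg over 16314 genes). In the same comparison 12.2% of all genes were called, 6.85% higher and 5.31% lower. The median log2 change of the 25 genes was 0.29, beside 0.09 over all genes tested. At an unadjusted p under 0.05 there were 13 of the 25, beside 33.3% of all genes. By direction alone, 14 of the 25 were higher at passage 7 in all 3 lines, beside 39.0% of all genes. They were 5 of the 8 mRNAs, 0 of the 2 rRNAs and 9 of the 15 tRNAs. The share of all genes whose passages do not overlap was not computed. Statements of non-overlap, here and above, therefore only describe single genes.

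The 5 tRNA genes that rose decode arginine, alanine, leucine, serine and methionine, and their sequences are given because they carry the calls. None of their 50-base windows occurs in another annotated transcript, with the limit given above for mt-Tr.

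mt-Tr, chrM:9808-9875, plus strand: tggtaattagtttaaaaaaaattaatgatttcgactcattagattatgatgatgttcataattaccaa
mt-Ta, chrM:5018-5086, minus strand: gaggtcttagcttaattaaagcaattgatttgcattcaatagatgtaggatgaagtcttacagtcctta
mt-Tl2, chrM:11671-11741, plus strand: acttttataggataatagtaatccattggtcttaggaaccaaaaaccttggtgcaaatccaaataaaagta
mt-Ts2, chrM:11613-11671, plus strand: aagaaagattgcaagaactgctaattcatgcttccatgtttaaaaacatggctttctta
mt-Tm, chrM:3845-3913, plus strand: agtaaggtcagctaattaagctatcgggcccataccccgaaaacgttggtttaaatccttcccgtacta

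They share no single strand or position: 4 are on the plus strand and mt-Ta is on the minus strand, and mt-Ts2 and mt-Tl2 are neighbours that overlap at position 11671. Their GC content ran from 22.1% in mt-Tr to 44.9% in mt-Tm. mt-Tr, which lies in the stretch copied to chromosome 1, had an RPKM of 15.9, 41.6, 21.2, 41.0, 21.2 and 36.1, from 18, 39, 25, 43, 24 and 37 reads. Every passage 7 library was above every passage 5 library, with a log2 change of 1.01 (SE 0.12, adjusted p = 0.0230). mt-Ta had 106, 182, 128, 187, 93.9 and 124, higher at passage 7 in 3 of 3 lines although the passages overlapped, with a log2 change of 0.57 (SE 0.08, adjusted p = 0.0269). mt-Tl2 had 45.0, 73.6, 67.5, 87.6, 51.6 and 87.8 (0.61, SE 0.09, adjusted p = 0.0284). mt-Ts2 had 56.1, 93.5, 65.6, 87.9, 65.1 and 124 (0.69, SE 0.10, adjusted p = 0.0303), and mt-Tm 53.2, 97.8, 66.9, 85.5, 55.7 and 92.3 (0.65, SE 0.11, adjusted p = 0.0356). In the last 3 the passages did not overlap.

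These calls depended on the libraries at hand. Leaving out either GFP library or either clone 1 library left 0 of them, as it left 0 of all genes. Leaving out clone 3 at passage 5 or at passage 7 left only mt-Ta and mt-Tr of the 5, and mt-Tn, the asparagine tRNA gene, passed in addition. With no expression filter 0 passed, although 629 genes did. Over all alternatives the adjusted p ran from 0.0130 to 0.114 for mt-Tr, from 0.00984 to 0.130 for mt-Ta, from 0.0222 to 0.157 for mt-Tl2, from 0.0156 to 0.162 for mt-Ts2 and from 0.02004 to 0.159 for mt-Tm. The same 5 genes passed with pseudocounts of 0.1 and 1 and with both rescalings of the libraries. They also passed, with further mitochondrial genes, under quantile normalization, a filter of 1 in 3 libraries, robust empirical Bayes and voom on recovered reads. Without line as a term only mt-Tm, mt-Tr and mt-Ts2 passed. The SEs of the main fit borrow spread from genes of like RPKM, most of them longer and with more reads. Counting error in the few reads of these tRNA genes may exceed what these SEs hold. The voom fit weights values by read count, but how far the SEs of the main fit fall short was not tested.

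Of the 8 mRNAs 0 passed the threshold, with 4 at an unadjusted p under 0.05. Their median log2 change was 0.25, beside 0.57 for all 15 tRNA genes tested, which ran from -0.29 for mt-Tp to 1.07 for mt-Ti. For mt-Cytb the log2 change was 0.38 (SE 0.10, adjusted p = 0.0805), for mt-Nd6 0.37 (SE 0.09, adjusted p = 0.0695), for mt-Nd5 0.30 (SE 0.07, adjusted p = 0.0664) and for mt-Nd4 0.26 (SE 0.07, adjusted p = 0.0749). These 4, and mt-Co1 at 0.21 (SE 0.11, adjusted p = 0.243), were higher at passage 7 in 3 of 3 lines. Over the alternatives their adjusted p ran from 0.000302 to 0.493 for mt-Cytb, from 0.00181 to 0.311 for mt-Nd6, from 0.000406 to 0.357 for mt-Nd5, from 0.00268 to 0.353 for mt-Nd4 and from 0.00211 to 1 for mt-Co1. All 5 passed with voom on recovered reads and with robust empirical Bayes.

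mt-Nd1 and mt-Nd2 lie next to each other behind the rRNAs and did not move alike in the 3 lines. For mt-Nd1 the log2 difference between passages was 0.30 for GFP, 0.22 for clone 1 and -0.10 for clone 3, while for mt-Nd2 it was 0.36, 0.33 and -0.02. The rRNAs differed among lines in another way, with 0.07, -0.30 and 0.15 for mt-Rnr1 and 0.01, -0.31 and 0.15 for mt-Rnr2. Their limma estimates were -0.03 (SE 0.11, adjusted p = 0.869) and -0.05 (SE 0.13, adjusted p = 0.802). Among tRNAs, mt-Tp stood at 111, 122, 129, 45.5, 109 and 154 and mt-Tt at 60.2, 58.5, 75.0, 45.5, 47.5 and 78.2. Both of these neighbours were lowest in clone 1 at passage 7. mt-Tl1, which follows mt-Rnr2, was the single gene lower at passage 7 in 3 of 3 lines, by 0.04, 0.08 and 0.15 on the log2 scale, and did not pass (estimate -0.09, SE 0.04, adjusted p = 0.195, and 0.0697 to 0.844 under the alternatives).

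**Figure D4:**
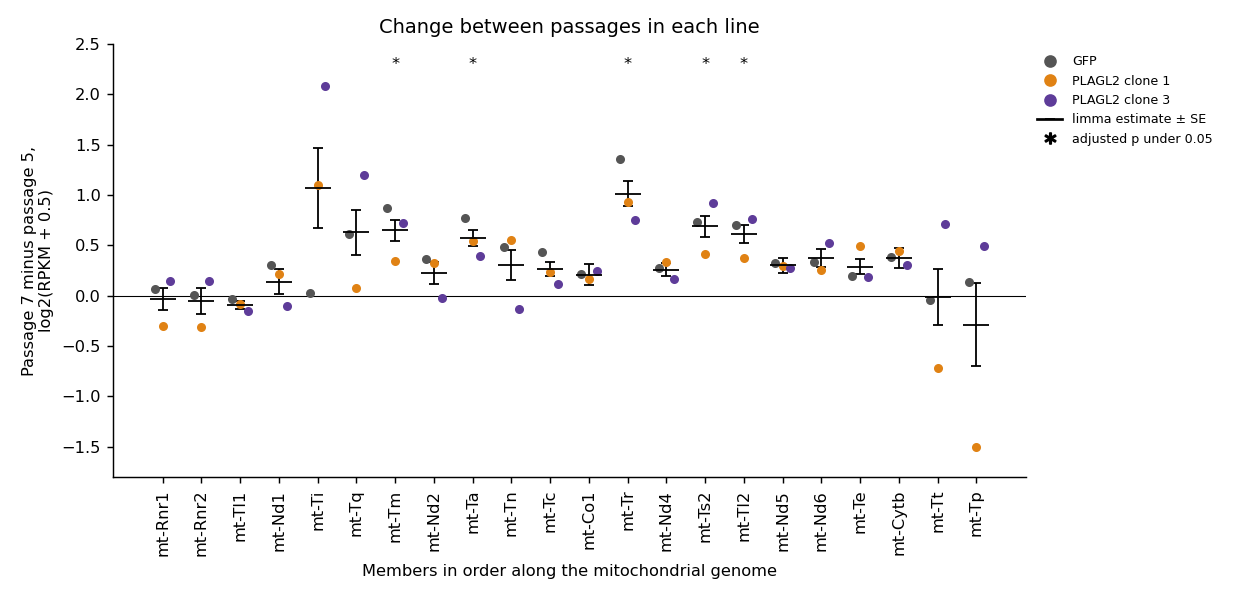
Difference between passage 7 and passage 5 in log2(RPKM + 0.5) for 22 mitochondrial genes (mt-Nd3, mt-Tv and mt-Tf, with at most 6 reads, are not drawn). Coloured points are the 3 lines, black marks the limma estimate with its SE, and asterisks an adjusted p under 0.05. Most points lie above 0, with mt-Tr at 1.01, and clone 1 lies below 0 at both rRNAs, mt-Tt and mt-Tp.

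Of the 13 mRNAs in the transcript table, 12 had an estimate above 0 between passages, beside 57.4% of all 44747 transcripts, and 9 an unadjusted p under 0.05, beside 13.1%. None passed the threshold, 0 of 13 (limma-trend, adjusted p = 0.223 to 0.979), beside 0% of all transcripts. The entry below 0 was mt-Nd2, with an RPKM of 3461, 3801, 3542, 2623, 3207 and 1951. In clone 1 this table listed mt-Nd2 lower at passage 7 and the gene table listed it higher, at 4284 after 3417. Both tables had mt-Nd2 lower relative to mt-Cytb at passage 7 in 3 of 3 lines, with ratios of 0.546 to 0.540, 0.583 to 0.536 and 0.549 to 0.438 in the gene table and 0.724 to 0.706, 0.769 to 0.446 and 0.776 to 0.367 in the transcript table. mt-Nd1 was also lower relative to mt-Cytb in 3 of 3 lines of the gene table, at 1.04 to 0.984, 1.13 to 0.964 and 1.05 to 0.792. The exact permutation p was 0.25 for each of these ratios, the smallest that 3 pairs allow. Among the nuclear copies, Gm28661 and mt-Co2 combined in the same way stood at 9523, 14095, 11810, 14613, 10283 and 14884, higher at passage 7 in each line. By themselves, Gm28661, Gm28438, Gm10925 and Gm28437 were higher at passage 7 in each line, and Gm10222 and Gm28439 were at 0. Gm29216 was lower in each line, at 4074 and 4012, 4494 and 3957, and 4254 and 4086 (limma log2 change -0.09, SE 0.05).

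Summed over all 37 genes, the mitochondrial share of the summed RPKM was higher at passage 7 in all 3 lines. At passages 5 and 7 it was 10.8% and 13.03% for GFP, 11.2% and 12.6% for clone 1, then 10.7% and 12.2% for clone 3. The mean difference was 1.70 percentage points. Of the reads, the share was 4.91% and 5.83%, 5.07% and 5.65%, and 4.77% and 5.43%. Both had an exact two-sided permutation p of 0.25, the smallest that 3 pairs allow, so the design cannot reach the threshold, and over the 30 library values compared between passages the lowest adjusted p was 0.326. The classes did not contribute evenly. The mRNA share of mitochondrial reads was 78.6% and 81.6% for GFP, 76.5% and 83.0% for clone 1, then 78.3% and 78.9% for clone 3. The ratio of rRNA to mRNA RPKM was lower at passage 7 in 3 of 3 lines, at 0.229 and 0.188, 0.257 and 0.171, and 0.233 and 0.225 (exact permutation p = 0.25). For the ratio of tRNA to mRNA RPKM the passages overlapped, at 0.0337 and 0.0379, 0.0402 and 0.0375, and 0.0326 and 0.0376 (exact permutation p = 0.5). The ratio of mt-Nd6 to the sum of the heavy-strand mRNAs was 0.113 and 0.115, 0.113 and 0.111, and 0.103 and 0.133 (exact permutation p = 0.5). Set against its neighbour mt-Cytb alone, mt-Nd6 went the other way on average, by -0.00224 (exact permutation p = 1). In the transcript table the ratio to the heavy-strand mRNAs was higher at passage 7 in 3 of 3 lines, at 0.0659 and 0.0687, 0.0657 and 0.0659, and 0.0587 and 0.0735 (exact permutation p = 0.25, the smallest that 3 pairs allow), and the ratio to mt-Cytb there differed by -0.00530 (exact permutation p = 1). That heavy-strand sum leaves out the signal listed under the chromosome 1 copies. The copies held 88.9% to 98.9% of the pair for mt-Nd3, mt-Atp6, mt-Co3 and mt-Co2. The direction of the ratio with the copies added was not tested. In the gene table, the mRNA sums of these ratios nearly leave out the mRNAs listed at or near 0.

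Most nuclear-encoded partners of these subunits had estimates below 0. Of 80 tested nuclear subunits of complexes I to IV and ATP synthase, 65 were below 0, beside 5803 of 16314 genes. Their median log2 change was -0.07, beside 0.09 over all genes. Past the threshold 1 rose and 5 fell, beside 6.85% of all genes called higher and 5.31% called lower. Before adjustment, 24 of the 80 had a limma p under 0.05, beside 33.3% of all genes. Ndufb11, an accessory subunit of complex I, rose from 64.7 ± 1.53 to 73.0 ± 1.69 (RPKM, SD, n = 3 each). Ndufv3 and Ndufa6 of complex I, Uqcrfs1, the iron-sulfur protein of complex III, Cox7a1 of complex IV and Atp5g3, a subunit of the ATP synthase ring, fell, the largest fall being that of Cox7a1 from 61.7 ± 14.4 to 34.7 ± 9.65. The mt mRNA sum over the sum of 85 nuclear subunits was 3.87 and 5.01 for GFP, 3.96 and 4.96 for clone 1, then 3.62 and 4.70 for clone 3 (higher in 3 of 3 lines, exact permutation p = 0.25). The passages did not overlap in this ratio, whose mitochondrial sum nearly leaves out the mRNAs listed at or near 0 in the gene table.

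In each list of other nuclear genes with mitochondrial roles, 0 to 2 genes rose, beside 6.85% of all genes called higher. Estimates above 0 were 12 of 13 for transcription, 10 of 11 for replication and 23 of 27 for RNA processing. They were 64 of 74 for ribosomal proteins, beside 10511 of 16314 genes. The other lists were split, with 4 of 8 biogenesis, 5 of 10 mass and 5 of 11 stress response genes above 0. Of 13 genes of mitochondrial transcription and the nucleoid, 2 rose and 0 fell: Tfam, which packs mitochondrial DNA and starts its transcription, from 15.6 ± 0.0107 to 18.9 ± 0.342 (adjusted p = 0.0297), and Tfb1m, which methylates the 12S rRNA, from 6.24 ± 0.386 to 7.80 ± 0.309 (adjusted p = 0.0443). Of 11 replication genes 2 rose, Mgme1, a nuclease, and Top1mt, a topoisomerase, and of 27 RNA processing genes 2 rose, Trit1, which modifies tRNAs, and Lrpprc, which stabilises mitochondrial mRNAs. Of 8 biogenesis regulators Myc, a growth-promoting transcription factor, rose from 33.5 ± 2.51 to 53.1 ± 1.75 and Esrra, a nuclear receptor that drives respiratory genes, fell from 61.3 ± 6.55 to 47.1 ± 4.06. Of 10 mitochondrial mass proteins 1 rose, Tomm20, an import receptor. Of 11 tested stress response genes 2 rose, the chaperonins Hspd1 and Hspe1. Of 74 tested mitochondrial ribosomal proteins 0 passed, and 15 had an unadjusted p under 0.05, beside 33.3% of all genes. The counts past the threshold stand beside the 6.85% of genes called higher and 5.31% called lower, and they went to 0 without either GFP library or either clone 1 library. Without line as a term, 2 transcription, 1 replication, 1 RNA processing, 1 biogenesis, 1 mass, 2 stress response, 1 ribosomal protein and 3 nuclear subunit genes passed.

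Cell type markers moved with passage in the same libraries. The counts below stand beside 6.85% of all genes called higher and 5.31% called lower. The dependence of passage calls on single libraries, given above, holds for these counts too. All 10 enterocyte markers fell, with a median log2 change of -1.17 and a summed RPKM of 6279 to 7849 at passage 5 and 3093 to 3505 at passage 7, among them Apoa4, an apolipoprotein, at -1.78 and Sis, sucrase-isomaltase, at -1.20. All 7 stem cell markers rose, with a median of 0.61 and sums of 1114 to 1228 and 1462 to 1941, among them Ascl2, a stem cell transcription factor, at 0.91 and Lgr5, a receptor for R-spondins, at 0.70. Of the enteroendocrine markers 3 of 6 rose and of the tuft markers 2 of 4, while 2 of 7 goblet markers fell and 1 of 5 Paneth markers rose. Of the non-epithelial markers 1 of the 3 tested rose, Vim, with list sums of 6.37 to 7.95 and 8.37 to 11.0, and of 5 epithelial markers Krt18 rose and Krt20 fell. Of 65 tested RNAs without a poly(A) tail, most of them histone mRNAs, 38 rose and 0 fell, with 59 estimates above 0 and 6 below. The list sum was 36515 to 37147 at passage 5 and 37998 to 39583 at passage 7, but its members did not move alike. The histone sum went from 8001 ± 199 to 10196 ± 305 (SD, n = 3 each), and Rn7sk was higher at passage 7 in each line. Rpph1 was lower in each line, at 12753 and 11400 for GFP, 12699 and 11832 for clone 1, then 12543 and 11687 for clone 3. Rmrp was also lower in each line. Without line as a term, 7 enterocyte, 4 stem cell, 1 tuft and 0 goblet, Paneth, enteroendocrine or non-epithelial markers passed. The part of cell composition, and of the depth of poly(A) selection, in the mitochondrial values was not tested. In bulk libraries, fewer cells of a type and less RNA per cell cannot be told apart.

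**Figure D5:**
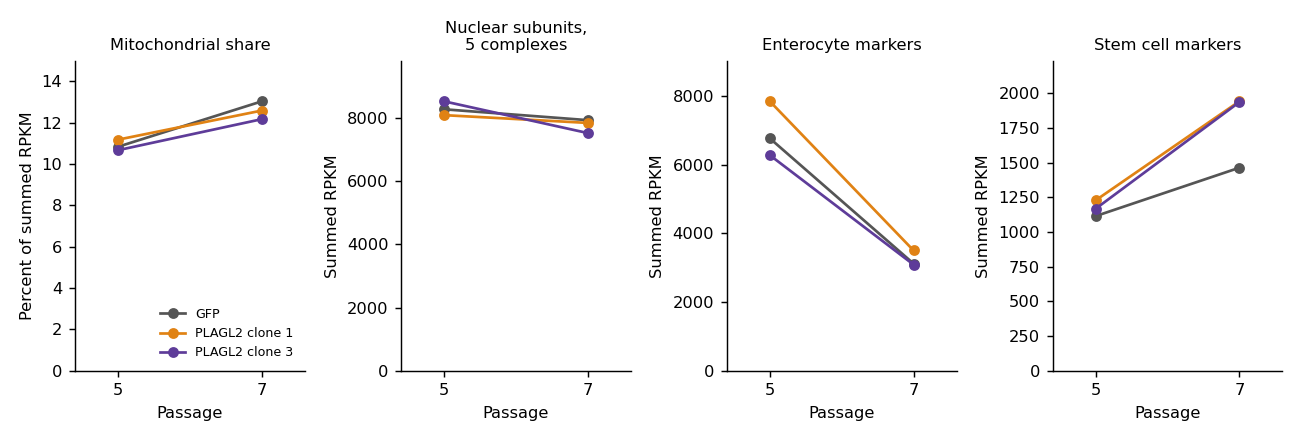
Mitochondrial share of the summed RPKM, and summed RPKM of nuclear subunits of complexes I to IV and ATP synthase, of 10 enterocyte markers and of 7 stem cell markers, at passages 5 and 7 in the 3 lines. Each line joins the libraries of 1 culture and axes start at 0. The mitochondrial share goes from 10.8% to 13.03% in GFP while the enterocyte sum is lower and the stem cell sum higher at passage 7.

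No difference between lines in a mitochondrial gene passed the test. For both clones against GFP 0 of 25 genes were called, beside 0.00613% of all genes, with 0 of 25 at an unadjusted p under 0.05 (5.95% of all genes) and limma adjusted p from 0.976 to 1.00. For clone 1 against GFP 0 were called (0.0306% of all genes) with 1 at an unadjusted p under 0.05 (3.95%). For clone 3 against GFP 0 were called (0.349%) with 0 at an unadjusted p under 0.05 (9.04%), and for clone 3 against clone 1 0 were called (0.0245%) with 1 (5.13%). Voom on recovered reads also called 0 in each. mt-Co1 had a mean RPKM of 8382 ± 904 for GFP, 8667 ± 686 for clone 1 and 8448 ± 1017 for clone 3 (mean ± SD of 2 libraries), and its log2 change was 0.03 for both clones against GFP (SE 0.35, adjusted p = 1.00). For mt-Cytb it was 7200.4 ± 1337, 6927 ± 1501 and 6789 ± 1018, a log2 change of -0.07 (SE 0.34, adjusted p = 1.00). The median log2 change of the 25 genes was -0.06 for both clones, beside 0.01 over all genes. In the transcript table, none (0 of 13 mRNAs) passed between lines, beside 0% of transcripts for clone 1 against GFP, 0.00223% for clone 3 against GFP, 0.00447% for clone 3 against clone 1 and 0.00447% for both clones against GFP.

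The gene at an unadjusted p under 0.05 was mt-Tl1 in each case. Its RPKM was 33.7 and 32.9 for GFP, 48.5 and 45.8 for clone 1, then 30.4 and 27.4 for clone 3, from 31 to 63 reads, so that clone 1 lay above the other lines at both passages. The log2 change was 0.49 for clone 1 against GFP (SE 0.09, adjusted p = 0.409, and 0.0901 to 1 under the alternatives) and -0.70 for clone 3 against clone 1 (SE 0.09, adjusted p = 0.128, and 0.0348 to 0.851). With the replicate block, that is with passage as a further term, the latter passed at an adjusted p of 0.0348, as did 47 genes in all in place of 4.

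Among single values per library, the ratio of mt-Rnr2 to mt-Rnr1 was the one in which the 2 GFP libraries and the 4 PLAGL2 libraries did not overlap at the smallest p that exchanging single libraries allows. It was 3.02 and 2.90 for GFP, 3.28 and 3.26 for clone 1, then 3.14 and 3.14 for clone 3, a difference of 0.245 (exact two-sided permutation p = 0.0667), and over 30 such values the adjusted p was 1. The permutations between these groups treat the 2 libraries of a culture as independent. Their p-values therefore do not measure the spread between cultures. The mitochondrial share of the summed RPKM had a mean of 11.9% ± 1.55 over the 2 GFP libraries and 11.6% ± 0.881 over the 4 PLAGL2 libraries (± SD), a difference of -0.283 points (exact permutation p = 0.667). The ratios of rRNA, tRNA and mt-Nd6 to mRNA had an exact permutation p of 0.8 to 0.933 between these groups. Of the nuclear lists and markers above, 3 of 7 goblet markers, Muc2, Fcgbp and Agr2, fell in clone 3 against GFP, and 0 genes of the other lists passed between lines. With the replicate block these calls changed. For clone 3 against GFP 7 of 7 goblet, 2 of 5 Paneth, 2 of 10 enterocyte, 1 of 8 biogenesis and 1 of 5 epithelial genes then passed. For clone 1 against GFP 2 goblet, 1 enterocyte and 1 enteroendocrine gene passed, and for clone 3 against clone 1 4 goblet and 1 enteroendocrine.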

How the data were processed

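The authors deposited 1 table of RPKM values per gene and 1 of RPKM per transcript, each with 1 column per library. Per the submitters' processing notes, edgeR, featureCounts, Subread and STAR were used with build mm10. Their roles, their versions and the handling of multiply mapping reads were not given in the sources used here. Repeated identifiers were dropped (614 gene and 1557 transcript entries). The 7 pseudogenes and all gene positions come from GENCODE M21.

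Reads were recovered from RPKM steps. Of 25468 genes above 0, 67.7% gave whole reads, within 0.02 of a read, with annotated lengths and a further 32.0% with a fitted length, and recovered reads summed to 99.38% to 99.4% of the library totals. The floor of 3 reads covers counting error only. Voom on these reads was an alternative.

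Tests used limma 3.58.1 (R 4.3.3), limma-trend on log2(RPKM + 0.5), which understates changes of low genes, with a filter of 0.5 in at least 2 libraries and a Benjamini-Hochberg threshold of 0.05 over 16314 genes. Passage was fitted with line as a term (2 residual degrees of freedom), lines without passage (3, or 4 for both clones). Single library values had exact permutation tests, two-sided by absolute difference. Between PLAGL2 and GFP these exchanged single libraries and did not keep the libraries of a culture together. The fits were run on simulated data with normal noise and planted changes larger than those of the mitochondrial genes. That run does not bear on changes as small as these or on counting error in few reads.

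The letters A and B pair libraries because the labels give them as passages 5 and 7, and deviations of same-passage libraries from their line means correlated at 0.276 to 0.322. The genes and lists were chosen with earlier results of these data known, and the transcript table fits were added after seeing the data. Every mitochondrial mRNA and rRNA gene is named, each tRNA gene by its reads, and of each list the genes past the threshold, at most 5 by size of change (fewer where the list is only counted). Of the listed symbols 370 matched the table and 3, Twnk, Prorp and Fastkd4, did not. No count test was the main test.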

Additional observations from a re-analysis of the deposited data

Results flagged for a closer look

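2 genes had 1 library far from the other 3 among the 4 PLAGL2 libraries, both in clone 1 at passage 7. mt-Nd2 stood there at an RPKM of 4284, where the other 3 lay at 3286 to 3417, and mt-Tn at 49.3, where the others lay at 30.8 to 33.8. This check pooled both passages and left out GFP. At passages 5 and 7 GFP stood at 3417 and 4397 for mt-Nd2 and at 30.5 and 42.9 for mt-Tn, so it also was higher at passage 7. Over the 31 values examined in this way, chance flags about 1 in 20 groups.

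In 7 genes with at least 20 reads in every library, 1 line moved opposite to the other 2 between passages, and the difference between lines was not tested. In clone 1 the log2 difference was -0.30 for mt-Rnr1, -0.31 for mt-Rnr2 and -1.50 for mt-Tp, against values above 0 in GFP and clone 3. In clone 3 it was -0.10 for mt-Nd1, -0.0203 for mt-Nd2 and -0.13 for mt-Tn, against values above 0 in GFP and clone 1, and 0.71 for mt-Tt, against -0.04 in GFP and -0.72 in clone 1.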

How the results depend on the processing

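Between passages, the count of mitochondrial genes past the threshold was 5 and became 0 without an expression filter (629 of all genes in place of 1984), 9 with a filter of 1 in 3 libraries, 12 with voom (4089), 10 with robust empirical Bayes and 3 with no replicate block. Leaving out 1 library gave 0 to 3 (0 to 762 of all genes). With median-of-ratios scaling 462 genes were higher and 1159 lower, in place of 1117 and 867, with quantile normalization 771 and 888, and with nuclear scaling 1543 and 825. Between lines, counts over all genes moved as follows. For clone 1 against GFP the 5 became 3 with a pseudocount of 0.1, 22 with no filter, 10 with voom, 12 with the replicate block and 0 without any 1 library. For clone 3 against GFP the 57 became 139 with voom, 342 with the replicate block and 2 to 11 without 1 library. For clone 3 against clone 1 the 4 became 23 with no filter, 8 with the stricter filter, 7 with median-of-ratios scaling, 15 with quantile normalization, 24 with voom, 47 with the replicate block (1 of them mitochondrial) and 0 to 2 without 1 library. For both clones the 1 became 0 with a pseudocount of 0.1 or the stricter filter, 17 with no filter, 8 with voom, 2 with the replicate block and 0 to 3 without 1 library. The replicate block changed no other call of a mitochondrial gene. Between passages, the sign turned for mt-Tt with nuclear scaling (0.0102) and quantile normalization (0.0219), and with the latter for mt-Rnr1 (0.22), mt-Nd1 (-0.20) and mt-Tf (-0.00694). Without 1 library, log2 changes ran from -0.68 to 0.32 for mt-Tp, -0.38 to 0.34 for mt-Tt, -0.15 to 0.0782 for mt-Rnr2, -0.12 to 0.11 for mt-Rnr1, -0.13 to 1.09 for mt-Tv and -0.72 to 0.78 for mt-Tf. Likewise the mitochondrial share with PLAGL2 minus GFP ran from -1.38 to 0.814 points, the rRNA to mRNA ratio from -0.0079 to 0.0334, the tRNA to mRNA ratio from -0.000987 to 0.0033 and the mt-Nd6 ratio from -0.00488 to 0.00513, and the mt-Rnr2 to mt-Rnr1 ratio between passages from -0.125 to 0.0554. Against mt-Cytb alone, the mt-Nd6 ratio between passages was -0.00224. The mitochondrial share was higher at passage 7 under 6 other definitions, by 0.718 to 1.94 points. The causes of these changes were not tested. The transcript table holds no rRNA or tRNA, so ratios with these could not be taken from it. Depth limits the tRNA genes most, of which mt-Tv and mt-Tf had at most 5 reads.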
